A study of Mus musculus with 4 samples.

Results

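The comparison described here sets the gastric corpus epithelium of mice that received AREG during recovery from L635 injury against that of mice that did not, both at day 3. A barcode counted as a cell from 500 UMIs (counted RNA molecules) and 200 genes upward, with mitochondrial UMIs at or under 50%. This rule gave 20909 of the 38732 cells of the series, 7986 in the library without AREG and 12923 in the library with AREG. UMIs were summed over the cells of each library and scaled to CPM (counts per 1e+06 UMIs), and 5036 of the 32227 listed genes reached 20 CPM in either library. These genes are called the tested genes below, although no significance test was run on them.

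The series holds 4 single-cell RNA libraries of corpus tissue from wild-type C57BL6/J mice aged 6 to 7 weeks. The untreated mice received PBS, and the other 3 groups received a single oral dose of L635 at 350 mg/kg, a compound toxic to parietal cells, so both day 3 groups carry the injury. Tissue was taken at day 1, at day 3, and at day 3 with AREG, whose dose, route, schedule and vehicle the labels do not state. Each group is 1 library, the number of mice behind each is not given, so the differences below have no replicate check and carry no p-value.

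AREG stands for amphiregulin, a secreted growth factor that binds and activates EGFR, the epidermal growth factor receptor, which signals through RAS and the ERK kinases. The corpus gland holds surface pit cells that secrete mucus, dividing progenitors of the isthmus, mucous neck cells, acid-secreting parietal cells and enzyme-secreting chief cells. EGFR ligands are known in this tissue for their part in the renewal of the surface lineage and in repair after parietal cell loss. The comparison asks, per the series' stated aim, how AREG bears on the fate of progenitors during recovery.

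Mitosis genes and interferon-response genes are described first below, and the start-site regions of members of each are printed to show the elements by which these groups are known. Each is 300 bases of RefSeq sequence on GRCm38.p6, 250 before and 50 after the annotated start, 5′ to 3′ on the gene's strand. Capitals mark TTTGAA (the cell cycle genes homology region) and CCAAT boxes in the first pair, and the core of the interferon-stimulated response element (GAAA, any NN, GAAA) in the second pair, on either strand. The window of Ccnb2 is chr9:70421505-70421804 on the minus strand and that of Ube2c is chr2:164769679-164769978 on the plus strand. The window of Isg15 is chr4:156200769-156201068 on the minus strand and that of Ifit1 is chr19:34640639-34640938 on the plus strand.
Ccnb2: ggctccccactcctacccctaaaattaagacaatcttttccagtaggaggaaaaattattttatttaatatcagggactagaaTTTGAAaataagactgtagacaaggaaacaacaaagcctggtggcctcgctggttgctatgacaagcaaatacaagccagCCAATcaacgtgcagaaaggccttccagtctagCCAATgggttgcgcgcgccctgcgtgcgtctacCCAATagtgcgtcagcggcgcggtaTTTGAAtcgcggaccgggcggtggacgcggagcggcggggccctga
Ube2c: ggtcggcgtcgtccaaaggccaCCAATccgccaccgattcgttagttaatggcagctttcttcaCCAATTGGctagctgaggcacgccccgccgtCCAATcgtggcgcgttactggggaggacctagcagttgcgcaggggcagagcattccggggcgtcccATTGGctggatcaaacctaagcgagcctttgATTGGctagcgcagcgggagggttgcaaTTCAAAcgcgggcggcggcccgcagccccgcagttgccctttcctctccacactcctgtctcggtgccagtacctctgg
Isg15: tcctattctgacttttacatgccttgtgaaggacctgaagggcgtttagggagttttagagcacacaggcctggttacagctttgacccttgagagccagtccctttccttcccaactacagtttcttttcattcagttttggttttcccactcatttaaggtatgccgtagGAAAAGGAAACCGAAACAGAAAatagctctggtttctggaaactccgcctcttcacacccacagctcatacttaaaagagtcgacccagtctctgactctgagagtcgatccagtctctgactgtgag
Ifit1: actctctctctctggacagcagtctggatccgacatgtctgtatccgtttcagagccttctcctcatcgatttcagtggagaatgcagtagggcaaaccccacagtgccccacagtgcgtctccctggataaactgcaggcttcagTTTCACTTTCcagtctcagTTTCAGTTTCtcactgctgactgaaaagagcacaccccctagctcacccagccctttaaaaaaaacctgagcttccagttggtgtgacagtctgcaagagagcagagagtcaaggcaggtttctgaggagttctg
In Ube2c 1 pair of CCAAT matches on opposite strands overlaps, and in Isg15 3 matches overlap in 1 run. Of the 16 G2/M genes of the list used below that have a window, TTTGAA was found in 11 (68.8%) and CCAAT in 14 (87.5%), against 17.9% and 37.4% of all 32851 windows of this length. The core of the interferon-stimulated response element was found in 10 of 19 interferon-response genes (52.6%) and in 0 of 16 G2/M genes, against 3.44% of all windows. These matches describe the sequences and are not evidence of binding in these samples.

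The deposited libraries held 62591649 UMIs without AREG and 81286332 with AREG, of which cells held 67.2% and 63.9%. Median UMIs per cell were 3013.5 and 2685, and the median mitochondrial share was 2.93% and 5.65%. The labelled epithelial identity was checked against markers: the summed level of 6 general epithelial markers was 3764 and 3783 CPM. Lymphocyte markers summed to 2.88 and 2.41 CPM, myeloid markers to 2.69 and 1.54, fibroblast markers to 2.97 and 2.35, and endothelial markers to 55.9 and 40.9. Nkg7, S100a8, Cma1, Hbb-bs and Hbb-bt were at 0 in both. Squamous markers, from the neighbouring forestomach, summed to 8.60 and 4.30 CPM. The libraries shared 3 cell barcodes.

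The libraries also stood apart in 6 transcripts of barcodes under 50 UMIs, which hold free RNA and no cell. Tafa2, which encodes a small secreted protein, was at 4616 CPM in such barcodes without AREG and 4.93 with AREG, and at 1138 and 7.12 in the untreated and day 1 libraries. The gene model Gm50024 and Vwc2l followed the same division. Cul3, a scaffold of ubiquitin ligases, was at 46.3 CPM in near-empty barcodes without AREG and 1479 with AREG, and at 23.8 and 2981 in the untreated and day 1 libraries. Cbfa2t2, a transcriptional corepressor, and the gene model Gm47854 followed that opposite division. All 6 thus put the untreated library with day 3 and the day 1 library with AREG, a split that the labels' treatments do not give. What sets these levels was not tested, and the count of called genes over all cells is given with and without them. The 6 were picked out after their values were seen.

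**Figure D1:**
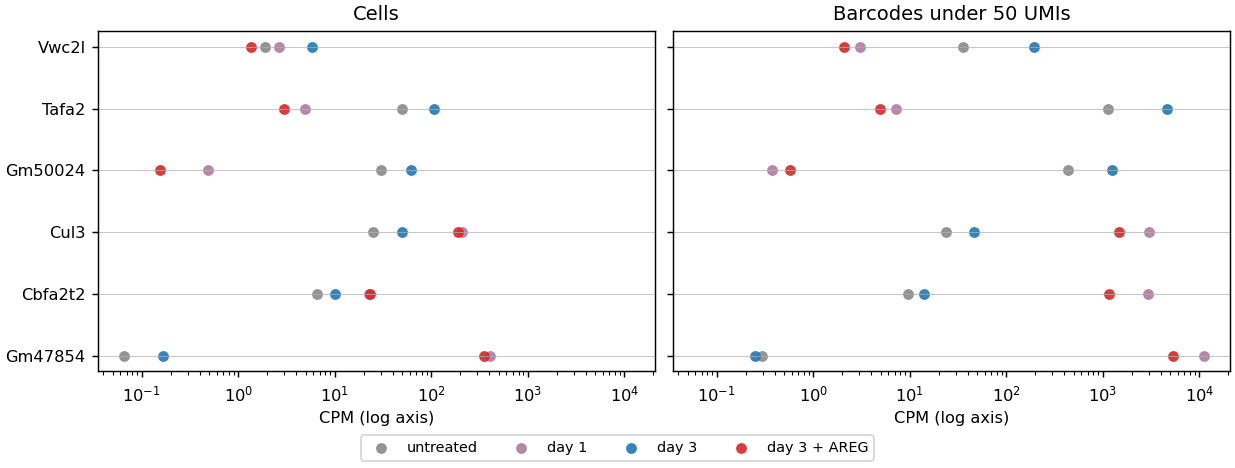
Level of 6 genes in cells (left) and in barcodes under 50 UMIs (right), in CPM on a log axis, 1 point per library. In barcodes under 50 UMIs Tafa2 is at 4616 CPM without AREG and 4.93 with it, and Gm47854 at 0.248 and 5300.

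Over all cells the profiles with and without AREG lay close together. The log2 ratio of CPM + 1, AREG over day 3 without AREG, had a median of 0.00 over the 5036 tested genes and ran from -0.32 at the 5th to 0.30 at the 95th percentile. A gene is called here when it differs at least 2-fold on that scale: 5 genes were called higher with AREG (0.0993% of those tested) and 21 lower (0.417%), 26 in all (0.516%). Past 1.5-fold there were 30 higher (0.596%) and 62 lower (1.23%). Without the genes that mark near-empty barcodes, the higher calls were Ccnb2 and Ube2c, both mitosis genes, and the lower calls numbered 19. At the edge of the threshold, Ube2c at 1.00 and Cbfa2t2 at 1.14 lay inside and Mki67 and Ccna2 at 0.91 outside, while Taco1 and Stk3 at -1.02 lay inside and Chia1 at -0.99 and Oasl1 at -0.98 outside. At the 20 CPM limit, Skil and Adck1 were just inside and Mast2 and Bin3 just outside. Intervals in parentheses are 95% conditional exact intervals of the count ratio on the log2 scale. They take no pseudocount and cover counting error only, not differences between mice or captures.

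**Figure D2:**
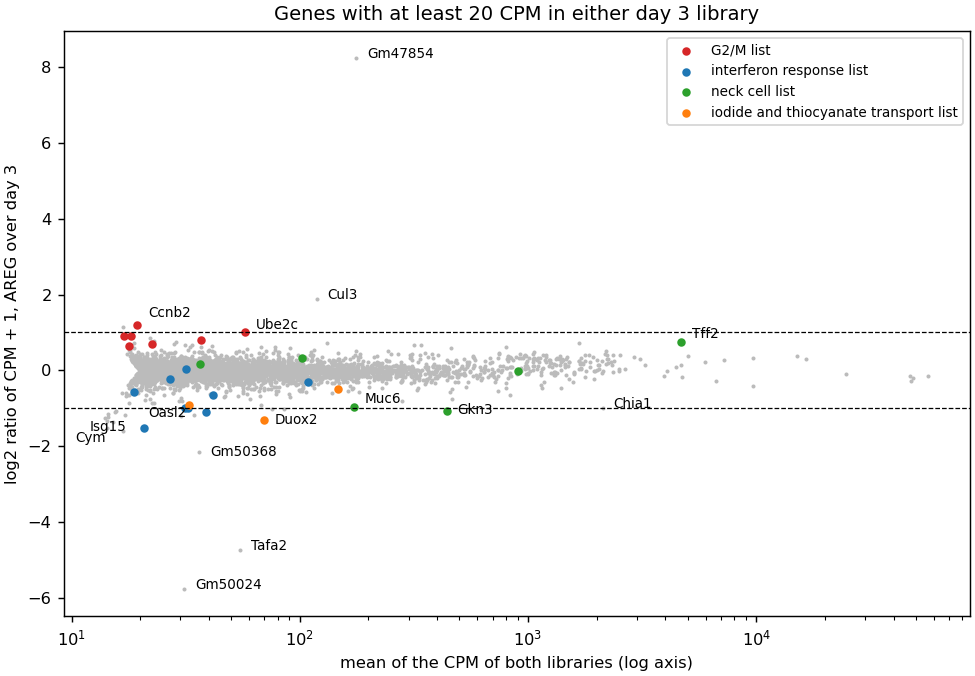
Each point is 1 tested gene (20 CPM or more in either of both libraries), by the mean of its CPM in both libraries (log axis) and its log2 ratio, AREG over day 3. Dashed lines mark 2-fold, and colours mark 4 gene lists. The G2/M genes lie above 0 and the 3 iodide transport genes below it, with Ccnb2 at 1.21 and Duox2 at -1.32.

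Of the listed mitosis genes, 2 were called higher with AREG, where 0.0993% of all tested genes were. Ccnb2, cyclin B2, which activates the mitotic kinase, was at 11.3 CPM without AREG and 27.4 with AREG, and at 23.8 and 28.4 in the untreated and day 1 libraries, a log2 ratio of 1.21 (1.13 to 1.43). Its UMIs came from 3.14% of cells without AREG and 6.55% with AREG. Ube2c, the ubiquitin-conjugating enzyme of the anaphase-promoting complex, was at 38.1 and 77.2 CPM without and with AREG, against 79.2 untreated and 114 on day 1, with a log2 ratio of 1.00 (0.93 to 1.10). For both genes the library without AREG was the lowest of the 4. With AREG, Ube2c lay near its untreated level, and Ccnb2 lay between its untreated and day 1 levels.

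The other 5 members of the G2/M list were tested and none of them reached 2-fold. Mki67, the proliferation marker Ki-67, was at 11.5 CPM without AREG and 22.5 with it, against 10.2 untreated and 34.8 at day 1. Ccna2 (cyclin A2) stood at 12.4 and 24.1 CPM, Birc5 (survivin, of the chromosomal passenger complex) at 26.8 and 47.2, Cdk1 (the mitotic kinase) at 17.0 and 27.9, and Cdc20 (the anaphase activator) at 13.7 and 21.9. In all, 7 of the 18 listed genes were tested, 2 were called higher, and all 7 had a ratio above 0, with a median of 0.91 beside 0.00 over all tested genes. The summed level of the list was 309, 582, 192 and 358 CPM in untreated, day 1, day 3 and AREG cells. Related genes outside the list were picked from the 30 highest ratios, so their side was set by that choice. They include Cks2 (a mitotic kinase cofactor, 15.4 and 28.8 CPM), Hmgb2 (a chromatin protein, 99.8 and 165) and Tubb5 (a tubulin, 72.7 and 109). The S phase list, which covers DNA replication, had 3 of 19 members tested, none called, and a median of 0.21. When AREG cells were weighted to the class mix of the library without AREG, Ccnb2 was at 0.91 and Ube2c at 0.71, so neither call held, and fewer dividing cells and less of these RNAs per cell cannot be told apart from the summed values alone.

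**Figure D3:**
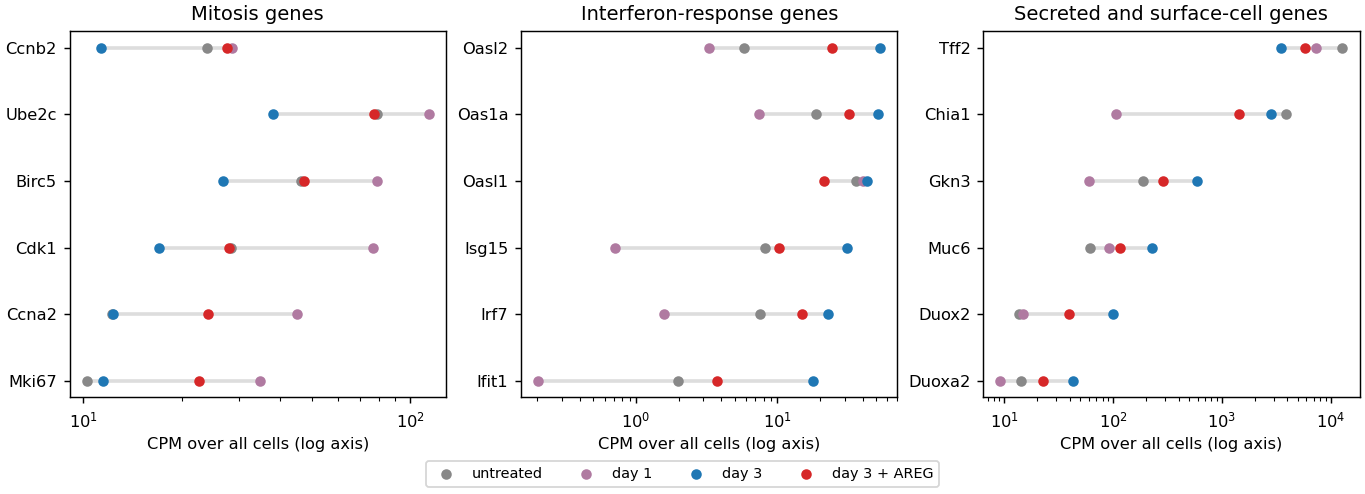
Level of 18 genes over all cells in the 4 libraries, in CPM on a log axis, 1 point per library and no error bars, since each group is 1 library. For Ccnb2 and Ube2c the day 3 point is the lowest of the 4, and for Oasl2, Isg15 and Ifit1 it is the highest, with the AREG point between day 3 and the other libraries.

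Of the listed interferon-response genes, 2 were called lower with AREG and most of the other tested members had ratios below 0. Isg15, a ubiquitin-like modifier, was at 31.2 CPM without AREG and 10.3 with AREG, against 8.12 untreated and 0.711 at day 1, giving a log2 ratio of -1.51 (-1.75 to -1.45). Oasl2, an oligoadenylate synthetase relative, was at 53.4 and 24.4 CPM, against 5.81 and 3.30, a log2 ratio of -1.10 (-1.23 to -1.03). For both, the library without AREG was the highest of the 4 and the AREG library came next. Oasl1, of the same family, was at 43.2 and 21.3 CPM (-0.98), with AREG the lowest of the 4 libraries. Oas1a, which makes the second messenger that activates RNase L, was at 51.1 and 32.1 CPM (-0.65), and Irf7, an interferon regulatory factor, at 22.8 and 14.9 (-0.58). Of the 24 listed genes in the files, 9 were tested, 2 were called lower, and 8 had a ratio below 0, with a median of -0.65, and 7 of the 9 did not pass the 2-fold threshold. Of all 5036 tested genes, 0.417% were called lower and 2479 had a ratio below 0. The exception was Bst2, a membrane tether of viruses, at 31.2 and 32.0 CPM (0.04).

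The interferon genes under 20 CPM included Ifit1, an RNA-binding antiviral protein, at 17.99 CPM without AREG and 3.76 with AREG. It was at 1.98 CPM in the untreated and 0.203 in the day 1 library. Its log2 ratio was -1.997, and the interval of the plain count ratio was -2.49 to -2.03. Rsad2 (viperin) was at 4.25 and 0.905 CPM. The list summed to 308, 213, 542 and 341 CPM in untreated, day 1, day 3 and AREG cells, and in near-empty barcodes to 608 without AREG and 330 with AREG. With AREG cells weighted to the other library's class mix, Isg15 was at -0.56 and Oasl2 at -0.50, so neither call held. The lymphocyte and myeloid marker sums given above were low in both libraries, and their part in the interferon values was not tested.

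Neck cell genes did not move together. Tff2, a trefoil peptide of neck cells, was at 3501 CPM without AREG and 5867 with AREG, against 12876 in the untreated and 7316 in the day 1 library, a log2 ratio of 0.74 (0.74 to 0.75). Gkn3, a gastrokine of neck cells, was at 595 and 285 CPM, against 188 and 59.9, and was called lower at -1.06 (-1.09 to -1.03). Muc6, the gland mucin, was at 228 and 116 CPM, against 61.0 and 91.8, a log2 ratio of -0.97 (-1.02 to -0.93). So Tff2 was lowest and Gkn3 and Muc6 were highest in the library without AREG. Tff2 RNA was not confined to neck cells. In the classes described below it was at 6428 CPM without and 9768 with AREG in neck-like cells, and 9100 and 12636 in proliferating-like cells. An unnamed cluster, described below as cluster 7, held Tff2 at 19204 and 17444 CPM. The Tff2 value over all cells is thus not that of neck cells alone. Agr2, a disulphide isomerase for mucins, was at 909 and 895 CPM, and Dmbt1, a secreted scavenger glycoprotein, at 90.0 and 114. In all 6 of 9 listed genes were tested, 1 was called lower, 3 lay above and 3 below 0, and the median was 0.07. Of all tested genes, 0.417% were called lower. One cell held 7.87% of the Gkn3 UMIs of the library without AREG, and without the top cell of each library Gkn3 was at -0.97, just short of the call.

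Among surface genes, those of the oxidase and iodide system were lower with AREG. Duox2, the dual oxidase that makes hydrogen peroxide at the surface, was at 100 CPM without AREG and 39.6 with AREG, against 13.6 untreated and 14.8 at day 1, giving a log2 ratio of -1.32 (-1.41 to -1.26). Duoxa2, its maturation factor, was at 43.1 and 22.6 CPM (-0.90), and Slc5a5, the iodide transporter, at 172 and 122 (-0.50). The 3 tested members of the 7-gene list were all below 0, at a median of -0.90, and 1 was called. Of all 5036 tested genes, 0.417% were called lower and 2479 had a ratio below 0. For Duox2 and Duoxa2 the library without AREG was the highest and the AREG library the second highest. The pit cell list itself differed less: 9 of 12 members were tested, none was called, and the median was -0.19. Its lowest member was Muc5ac, the surface mucin, at 1292 and 996 CPM (-0.37). Weighted to the other library's class mix, Duox2 was at -0.85, short of the call.

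Further genes past the top of the ranking on the lower side had varied roles. Ms4a8a, a membrane-spanning protein, was at 20.3 and 7.84 CPM (-1.27), Tsku (tsukushi, a secreted signalling modulator) at 42.5 and 17.9 (-1.20), and Lbh, a transcription cofactor, at 48.3 and 20.7 (-1.18). Stk3, a kinase of the Hippo pathway, was at 114 and 55.6 CPM (-1.02), and Taco1, a translational activator of a mitochondrial oxidase subunit, at 102 and 49.7 (-1.02). The next genes short of 2-fold included Aqp3, a water channel (29.96 and 16.1 CPM), Ncam1, a cell adhesion molecule (23.3 and 12.3), Slc26a2, a sulphate transporter (39.3 and 21.9), and Gsta2, a glutathione transferase (357 and 205). On the higher side, the genes next to the mitosis group and short of 2-fold were Tm4sf5, a tetraspanin-like membrane protein (16.7 and 29.3 CPM), Spp1, osteopontin (243 and 390), Slc9b2, a sodium-proton exchanger (14.0 and 23.7), and Mfge8, a secreted glycoprotein that binds phosphatidylserine (32.0 and 50.1). Zfp36l2, an RNA-binding protein that promotes mRNA decay, was at 24.02 and 38.7 CPM.

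Chief cell products were at or below the level without AREG. Cym, chymosin, was at 25.7 CPM without AREG and 7.76 with AREG, against 54.6 untreated and 113 at day 1, and was called lower at -1.61 (-1.90 to -1.56). Chia1, acidic chitinase, was at 2825 and 1424 CPM, against 3910 and 107, a log2 ratio of -0.99 (-1.001 to -0.97). Pgc, progastricsin, was at 49758 and 44752 CPM (-0.15), Cblif, gastric intrinsic factor, at 756 and 664 (-0.19), and Pga5, pepsinogen A, at 55.0 and 45.9 (-0.26). None of the 4 tested genes of the 10-gene chief list was called, all 4 were below 0, and the median was -0.22. The pancreatic amylases Amy2a2, Amy2a5, Amy2a3 and Amy2a4 were called lower, at -1.52 to -1.23, but 1 cell held 75.1% to 77.6% of their UMIs in the library without AREG. Without the top cell of each library their ratios were above 0, at 0.25 to 0.64, and these near-identical genes may share reads.

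The receptor pathway of AREG itself showed no called gene. Areg was at 3.75 CPM without AREG and 4.51 with AREG, against 7.15 untreated and 79.8 at day 1. Its ratio of 0.21 had an interval that spans 0 (-0.03 to 0.56), and the given protein would not be seen in these data. Among the other ligands Hbegf was at 21.5 and 22.4 CPM, the only one tested, and Tgfa at 19.9 and 15.2. Egfr, the receptor, was at 11.6 and 10.3 CPM, under the limit. Its partner receptors Erbb2 and Erbb3 were at 36.3 and 31.8, and at 46.8 and 45.6. The inhibitors Lrig1 and Errfi1 stood at 38.2 and 39.1, and at 41.0 and 41.6. Of 12 receptors, sheddases and regulators 5 were tested, with a median of -0.04. Genes that ERK signalling is known to induce had a median of -0.02 over the 4 tested of 17, with Phlda1 highest at 95.6 and 110 CPM (0.20) and Ccnd1, cyclin D1, lowest at 48.7 and 44.9 (-0.11).

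Immediate early genes, which cells switch on within minutes of a stimulus and also during tissue dissociation, were mostly above 0. Fos, a subunit of the AP-1 transcription factor, was at 263 CPM without AREG and 416 with AREG, against 317 untreated and 829 at day 1, giving a log2 ratio of 0.66 (0.63 to 0.69). Zfp36, an RNA decay factor, was at 53.1 and 81.7 CPM (0.61), Fosb at 47.2 and 66.1 (0.48), and Egr1, a zinc finger transcription factor, at 151 and 198 (0.39). Of 13 listed genes 12 were tested, none was called, 11 lay above 0 with Jund (131 and 123 CPM) the exception, and the median was 0.33.

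The other lists held few or no calls. Metaplasia genes had a median of 0.34 over 7 tested of 12, led by Wfdc2, a protease-inhibitor-like protein (23.4 and 33.3 CPM), Sox9, a progenitor transcription factor (75.2 and 102), and Clu, clusterin (1038 and 1362). Wound genes were divided, with 4 above and 3 below 0: Anxa1, annexin A1, stood at 14.4 and 21.3 CPM and Lamb3, a laminin chain, at 67.3 and 45.6. The parietal list had a median of -0.07 over 14 tested genes. Its acid pump subunits Atp4a and Atp4b were at 4313 and 4612, and at 5047 and 4430 CPM. Cholesterol synthesis genes lay below 0 in 12 of 15 tested, at a median of -0.17. Cytosolic ribosomal protein genes lay above 0 in 79 of 80, at a median of 0.28, and the mitochondrially encoded subunits in all 12 tested, at 0.33. These last ratios moved with the higher mitochondrial share of the AREG cells given above, and the part of RNA quality in them was not tested.

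Cells were clustered over both libraries and classes were named from marker genes, as pit-like, neck-like and so on. Shares are of all cells of the library and their intervals are exact Clopper-Pearson. Ratios of shares carry Katz intervals. Proliferating-like cells made up 4.06% (3.63 to 4.51) of the library without AREG and 7.01% (6.58 to 7.46) of that with AREG, a log2 ratio of shares of 0.79 (0.61 to 0.97). Neck-like cells made up 10.6% and 15.4% (0.54, 0.43 to 0.65). Pit-like cells made up 36% and 22.6% (-0.67, -0.73 to -0.61). Parietal-like cells, at 23.1% and 24.2%, and chief-like cells, at 5.10% and 5.21%, had intervals of the ratio that include 0. Endocrine-like cells were 49 and 127 (0.614% and 0.983%) and tuft-like cells 20 and 47 (0.250% and 0.364%). Unnamed clusters held 20.2% and 24.2%. They include cluster 3, led by interferon genes, cluster 6, of low depth, and cluster 7, led by Tff2, Mt2 and Mgst1.

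Some genes that define these clusters differ between the libraries, so the clustering was repeated without 245 differing, cycle and interferon genes, a setting chosen after the data were seen. Pit-like cells then made up 39.4% and 25.1%, neck-like cells 8.30% and 11.4%, and proliferating-like cells 8.69% and 15.6%, with log2 ratios of -0.65, 0.46 and 0.84. Their directions were those of the first clustering, but the proliferating-like class was a wider set of cells. Its larger cluster held 2395 cells, with Tff2 among its leading genes, against 968 cells in the larger cluster at first. With 1 library a group, the part of dissociation and capture in these shares cannot be told apart from that of AREG.

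**Figure D4:**
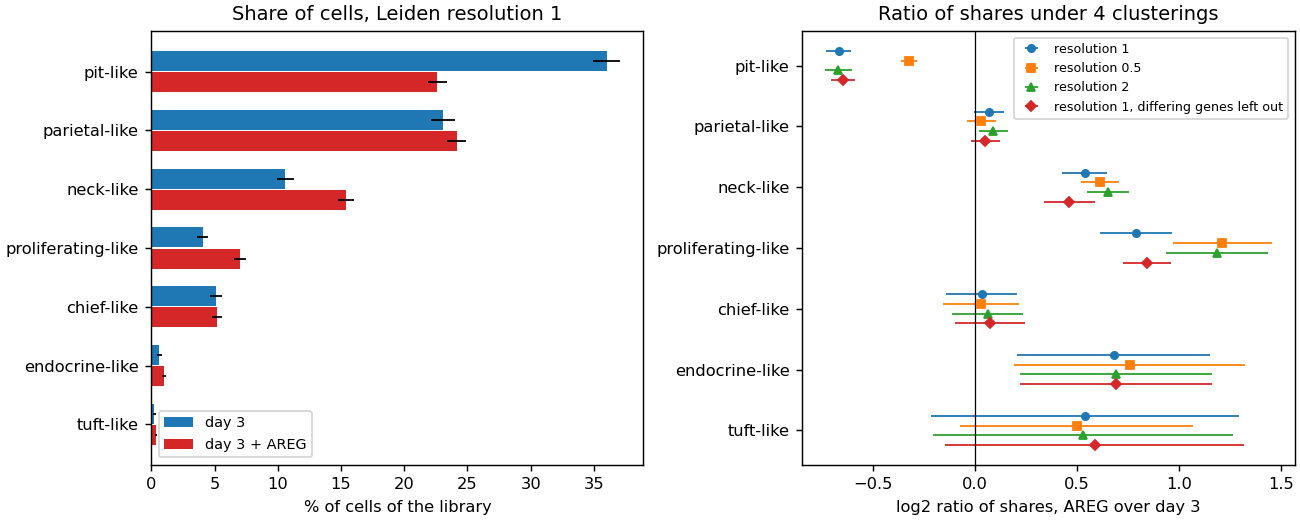
Left, share of cells per class without (blue) and with AREG (red) in % of the library, with exact 95% intervals. Right, log2 ratio of the shares under 4 clusterings, with Katz 95% intervals that cover counting error only. Pit-like cells lie left of 0 and proliferating-like and neck-like cells right of 0 in all 4, while the chief-like interval spans 0 in all 4.

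Dividing cells were also counted with no use of clusters, after every cell was thinned to 500 UMIs. At least 2 UMIs of the G2/M list were found in 122 of 7986 cells without AREG (1.53%, 1.27 to 1.82) and in 428 of 12923 with AREG (3.31%, 3.01 to 3.64), a log2 ratio of 1.12 (0.83 to 1.40). The parietal-like class, of non-dividing cells, gave a background of 0.489% and 0.288%. The share of S phase cells was 1.23% and 1.54%, and its ratio of 0.33 has an interval that includes 0 (-0.02 to 0.67). Not thinned, the G2/M share was 6.24% and 10.98% and the S phase share 19.5% and 17.4%. The parietal-like background was then 3.69% and 3.08% for G2/M, and 27.1% and 21.2% for S phase. As that S phase background lay above the shares of all cells, the S phase shares not thinned do not count cells in S phase. In pit-like cells the thinned G2/M share was 0.104% and 0.582%. In neck-like cells it was 0.826% and 1.26%, from 7 and 25 cells, and its ratio of 0.61 has an interval that includes 0 (-0.60 to 1.81). The pit-like share without AREG, 3 of 2875 cells, lay below the parietal-like background. With AREG it was 17 of 2922 cells, and its interval (0.339 to 0.930) overlapped that of the parietal-like share (0.132 to 0.547).

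Within neck-like cells, 11 of 5314 tested genes were called higher (0.207%) and 16 lower (0.301%). Counts of calls within classes, here and below, include genes of near-empty barcodes, among them Cul3 (higher) and Tafa2 (lower) in each class. Gkn3 was at 4670 CPM in neck-like cells without AREG and 1572 in those with AREG (-1.57, -1.61 to -1.53), and Muc6 at 2150 and 832 (-1.37, -1.42 to -1.32). Both genes lead this class, so these values describe cells that were picked in part for having them. Nfib, a transcription factor, was at 407 and 156 CPM (-1.38), Taco1 at 131 and 45.5 (-1.51) and Hspa1a, an inducible heat shock protein, at 181 and 76.9 (-1.22). S100a6, a calcium-binding protein of injured and dividing epithelium, was at 68.4 and 187 CPM (1.44, 1.25 to 1.66). Muc5ac, a pit cell mucin, was at 113 and 205 CPM (0.86). Free RNA, weighted by the pit markers, was taken as 6.86% of this class's UMIs without AREG and 11.5% with AREG, and near-empty barcodes held Muc5ac at 1245 and 881 CPM. Its part in the Muc5ac value was not tested. Tff2 was at 6428 and 9768 CPM (0.60), while Agr2 was at 5449 and 3633 (-0.58). Thus within the class Tff2 lay above 0 and Muc6, Gkn3 and Agr2 below it. Of 7 tested neck genes, 6 were below 0 and 2 were called, and of 15 cholesterol synthesis genes, 13 were below 0 (median -0.38). With the near-empty profile taken out of each library, Muc6 was at -1.32, Gkn3 at -1.51 and S100a6 at 2.13. In a finer clustering (resolution 2) neck-like cells differed in makeup between the libraries. A cluster led by Muc6 and Gkn3 held 236 of 899 such cells without AREG and 208 of 2286 with AREG. Another, led by Tff2 and Dmbt1, held 110 and 481. The part of this makeup in the values of the class was not tested.

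Within proliferating-like cells, 28 of 5381 tested genes were called higher (0.52%) and 55 lower (1.02%). Surface mucous genes were among those higher with AREG: Gkn2, a gastrokine, was at 11169 and 28161 CPM (1.33), Gkn1 at 12417 and 26021 (1.07) and Tff1, the surface trefoil peptide, at 21495 and 45242 (1.07). S100a6 was at 195 and 564 CPM (1.52, 1.42 to 1.64). The pit list had 3 of 9 tested genes called higher and 8 above 0, at a median of 0.53. Of 6 tested neck genes 2 were called lower, Gkn3 at 774 and 250 CPM (-1.62) and Muc6 at 284 and 93.6 (-1.59), while Tff2 was at 0.47. The parietal list had 4 of 14 tested genes called lower, among them Kcne2, a potassium channel subunit that the acid pump needs (310 and 136 CPM, -1.18), and Atp4b (5876 and 2683, -1.13). Over all genes tested in the class the median was -0.10. All 17 tested G2/M genes were above 0 (median 0.68, 3 called), which describes genes that define the class, and the 13 tested S phase genes had a median of -0.10.

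The proliferating-like class differed in makeup and depth between the libraries, which bears on those values. Cluster 9 held 63.6% of it without AREG and 84.1% with AREG. The remainder was cluster 10, whose cells had a median of 13697 UMIs over both libraries, against 4295 in cluster 9. Median UMIs of the class were 6940.5 without and 5066 with AREG. Doublets were not removed, and their part in the surface and parietal values of this class was not tested.

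Within pit-like cells, 6 of 4467 tested genes were called higher (0.134%) and 15 lower (0.336%). Tfrc, the transferrin receptor for iron uptake, was at 25.8 CPM without AREG and 61.8 with AREG (1.23, 1.07 to 1.46), and at 1.58 with the near-empty profile taken out. Tff2 was at 1470 and 2806 CPM (0.93), Fosb at 19.5 and 38.7 (0.95), Fos at 208 and 373 (0.84) and Gapdh, a glycolytic enzyme, at 101 and 167 (0.71). Duox2 was at 280 and 151 CPM (-0.89), short of 2-fold and on the same side as over all cells. Celf2, an RNA-binding protein, was at 154 and 69.7 CPM (-1.13), Ms4a8a at 53.6 and 24.4 (-1.10) and Lbh at 114 and 56.6 (-0.99). None of 11 tested pit genes was called, at a median of -0.03, and all 14 tested cholesterol synthesis genes were below 0, at -0.41. Interferon genes lay below 0 in 10 of 11 tested, at a median of -0.41, with Oasl2 at 81.5 and 53.2 CPM. Cluster 2, led by Gm50368 and Duox2, held 55.7% of the pit-like cells without AREG, and cluster 4, led by Lypd8l and Slc5a5, 60.3% of those with AREG.

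Cluster 3, led by interferon genes, stood outside the named classes, and joining it to the pit-like cells moved the interferon values. It held 329 of 7986 cells without AREG and 175 of 12923 with AREG. Within cluster 3 Isg15 was at 544 and 370 CPM (-0.56) and Oasl2 at 487 and 354 (-0.46). There 7 of 23 tested interferon genes were called lower, against 78 of all 4633 tested genes. Such genes lead this cluster, so these values describe cells that were picked in part for having them. Some of the calls rest on few UMIs. Ifit3 had 104 UMIs without AREG and 16 with AREG, 25% of the latter in 1 cell, and Cmpk2 had 113 and 17. In the joined cells 7 of 4468 tested genes were called higher (0.157%) and 19 lower (0.425%). Isg15 was at 82.3 and 32.7 CPM (-1.31). Of 14 tested interferon genes 4 were called lower, at a median of -0.70. The joined values mix the number of cluster 3 cells with levels per cell, and the part of each was not tested.

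Cluster 7, which carries Tff2 and stayed unnamed, held 613 of 7986 cells without AREG and 1742 of 12923 with AREG. In it 15 of 5003 tested genes were called higher (0.3%) and 10 lower (0.2%). S100a6 was at 278 and 807 CPM (1.53, 1.43 to 1.65), Tfrc at 42.1 and 85.7 (1.01), and Hmgn2, a nucleosome-binding protein, at 38.3 and 85.9 (1.14). Ube2c was at 11.1 and 27.4 CPM (1.24) and Birc5 at 10.0 and 27.4 (1.37). Tff2 itself was at 19204 and 17444 CPM (-0.14), above its level in neck-like cells (6428 and 9768). The part of this cluster's cell number in the Tff2 value over all cells was not tested. All 15 tested cholesterol synthesis genes lay below 0, at a median of -0.65, with Sqle, squalene epoxidase, at 88.8 and 42.6 CPM (-1.04). Not every class had this list below 0. It lay above 0 in 12 of 15 tested genes in parietal-like cells (median 0.11), where 2367 of all 5172 tested genes did (-0.01). In chief-like cells 7 of 10 lay above 0 (0.06), as did 2424 of all 3413 tested genes there (0.15). In proliferating-like cells 13 of 15 lay below 0 (-0.14), as did 3346 of all 5381 (-0.10). S100a6 was thus called in neck-like, proliferating-like and cluster 7 cells, while over all cells it was at 400 and 483 CPM (0.27). Whether these ratios differ between classes was not tested.

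Within parietal-like cells, 4 of 5172 tested genes were called higher (0.0773%) and 3 lower (0.058%), the smallest shares of the 5 classes. Genes of near-empty barcodes were among these calls. Cul3 was at 60.4 and 204 CPM (1.74), and at -0.024 with the near-empty profile taken out, and Tafa2 at 105 and 3.40 (-4.58). Among named genes with at least 50 CPM, the next were Ghrl at 0.93 and Taco1 at -0.97, both short of 2-fold. Fos was at 142 and 217 CPM (0.61) and Egr1 at 103 and 154 (0.57), and all 11 tested immediate early genes lay above 0, at a median of 0.31. That list also lay above 0 in 11 of 12 tested genes in pit-like cells, but in 8 of 13 in neck-like and in proliferating-like cells. In chief-like cells 9 of 12 lay below 0, at a median of -0.17. Taco1 was at 202 and 103 CPM (-0.97), and Cdkn1a, the cell cycle inhibitor p21, at 240 and 165 (-0.54). The 16 tested parietal genes had a median of -0.08 and none was called.

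Within chief-like cells, 11 of 3413 tested genes were called higher (0.322%) and 12 lower (0.352%), against a median of 0.15 over all genes tested there. Chia1 was at 29129 and 17512 CPM (-0.73) and Cym at 222 and 67.9 (-1.69, -1.92 to -1.50), so both were also lower within the class. Cblif stood at 6130 and 6105 CPM (-0.01). Pdia4, a disulphide isomerase of the endoplasmic reticulum, was at 25.3 and 55.0 CPM (1.09), and 9 of 10 tested genes of the unfolded protein response were above 0, at a median of 0.60. Tff2 was at 79.4 and 265 CPM (1.73), and at 0 in both once the near-empty profile was taken out. The hormone gene Ghrl, ghrelin, was at 2967 and 129 CPM in chief-like cells, where 1 cell held 96.7% of its UMIs without AREG.

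**Figure D5:**
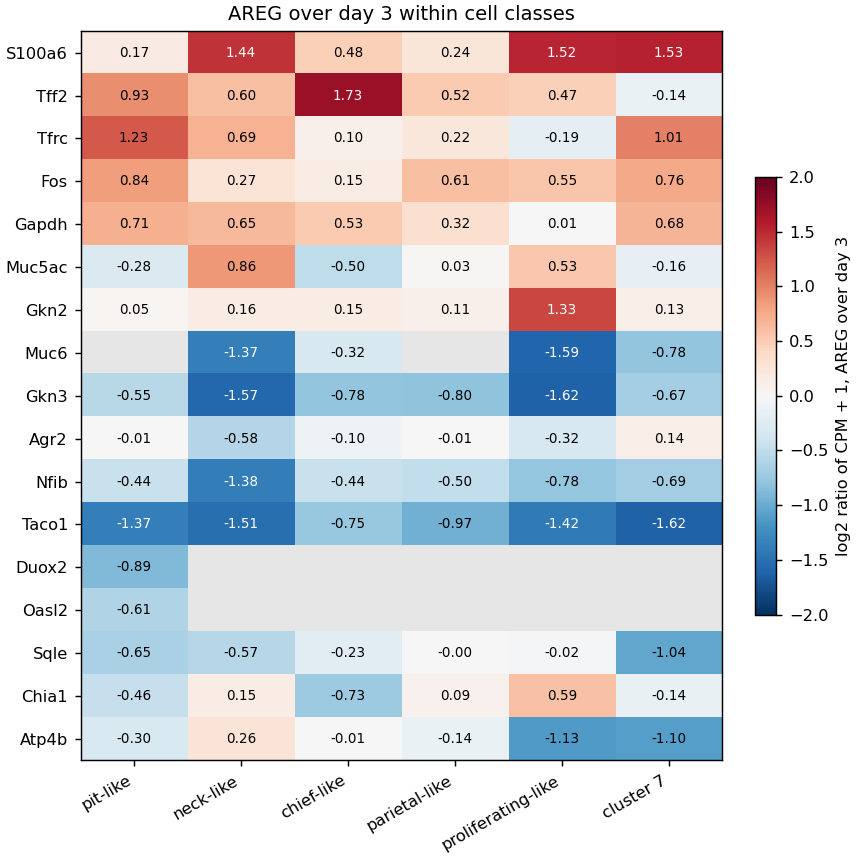
Log2 ratio of CPM + 1, AREG over day 3, for 17 genes (rows) in 5 classes and the unnamed cluster 7 (columns), with each value printed. Grey marks a gene under 20 CPM in both libraries of that class. S100a6 is at 1.44, 1.52 and 1.53 in neck-like, proliferating-like and cluster 7 cells, and Gkn3 at -1.57 and -1.62 in neck-like and proliferating-like cells.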

How the data were processed

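The authors deposited unnormalised counts, whole numbers of UMIs for each gene in each barcode, as 1 library per group. Per the labels' protocols, corpus tissue was taken apart in TrypLE with Y27632 (37 C, 5 min) and each PIPseq T20 3' capture received 25000 cells. Per the submitters' processing notes the build was GRCm39, and the aligner is not given in the sources used here. A reference of another build was at hand, so only promoter windows, named with their build, carry coordinates.

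The summed counts of a library's cells were expressed as CPM, and log2 ratios were taken after adding 1 CPM to each value, so that ratios of low genes are understated. The first entry of each of 27 repeated gene symbols was used. Cells of both libraries were clustered together without integration in scanpy 1.11.5 (2000 variable genes, 40 components, 15 neighbours, Leiden resolution 1). A cluster was named when at least 3 of its class's markers were higher than in other clusters and its leading genes held no more markers of another class. Scrublet called 14 and 38 cells (0.175% and 0.294%), too few for the caller to have worked, and no cell was removed. Tables and intervals used pandas 2.3.3, numpy 2.4.6 and scipy 1.17.1 in Python 3.11.15, and the ratios were tested on simulated data. Free RNA was profiled in barcodes below 50 UMIs, and that profile was scaled to markers of a class that the cells should lack.

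Genes named are the 30 highest and 30 lowest ratios of tested genes, the 5 highest and 5 lowest per class with at least 50 CPM and 100 cells in both libraries, without mitochondrial, ribosomal protein and unnamed genes, and members of lists. The members, lists and markers were chosen with earlier results of these data known. The alternatives covered cell filters, pseudocount, CPM minimum, scaling, weighting, single cells, doublet scores, resolution, thinning and free RNA.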

Additional observations from a re-analysis of the deposited data

Results flagged for a closer look

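Barcodes under 50 UMIs enter no comparison of cells, and 6 genes differed widely between the libraries in them. In the library without AREG, Vwc2l was at 195.8 CPM there, Tafa2 at 4616 and Gm50024 at 1243, against 2.06, 4.93 and 0.573 with AREG. In the AREG library Cul3 was at 1479 CPM, Cbfa2t2 at 1152 and Gm47854 at 5300, against 46.3, 14.1 and 0.248 without AREG. The untreated library sided with day 3 without AREG (Tafa2 1138 CPM, Cul3 23.8), and the day 1 library with AREG (Tafa2 7.12 CPM). Day 1 was above the AREG library for Cul3 (2981 CPM), Cbfa2t2 (2960) and Gm47854 (11247). In cells these genes had the same order, with Tafa2 at 106 and 2.99 CPM and Cul3 at 49.8 and 188.

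Some genes were called in opposite directions in different classes, and the differences between classes were not tested. Ghrl had a log2 ratio of 1.03 in neck-like and -4.51 in chief-like cells, where 1 cell held 96.7% of its UMIs without AREG. Its ratio was also above 0 in parietal-like (0.93), proliferating-like (0.73) and pit-like (0.53) cells. In near-empty barcodes the hormone list, which holds Ghrl, summed to 2825 CPM without AREG and 3617 with AREG. The part of free RNA in the Ghrl values was not tested. Apoa1, an apolipoprotein, had a ratio of 1.04 in neck-like and 1.06 in chief-like cells and -1.23 in proliferating-like cells.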

How the results depend on the processing

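No paired analysis was possible because each group is 1 library, and for the same reason no replicate could be left out. Over all cells, the 5 genes higher and 21 lower became 2 and 7 with a pseudocount of 10 CPM, 3 and 8 at a minimum of 50 CPM, 9 and 37 at 5 CPM, and 3 and 12 when AREG cells were weighted to the other library's class mix. The higher genes became 10 over all barcodes, and the lower genes 36 with each cell given equal weight. Class-mix weighting kept 14 of the 26 calls and equal weight kept 19. The sign was reversed without the top cell for Amy2a2 (0.25), Amy2a5 (0.50), Amy2a3 (0.47) and Amy2a4 (0.64). Among 78 named genes, Hbegf and Erbb3 also changed side under class-mix weighting, and Areg and Pgc with each cell given equal weight.

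The log2 ratio of shares was -0.33 for pit-like and 1.21 for proliferating-like cells at resolution 0.5, and 0.65 for neck-like and 1.19 for proliferating-like cells at resolution 2. Without thinning, the ratio was 0.82 for G2/M and -0.16 for S phase. In that setting the S phase shares of non-dividing parietal-like cells lay above those of all cells. With a pseudocount of 10 CPM, genes called lower in pit-like cells became 5, genes called higher in neck-like, chief-like and parietal-like cells became 4, 6 and 2, and in proliferating-like cells 9 were higher and 23 lower. With free RNA taken out, 3 genes were higher in pit-like and 1 in parietal-like cells, 25 were lower in neck-like cells, and 259 were higher and 1001 lower in proliferating-like cells. In these last cells the weight was set by pit markers without AREG, where 29.7% of UMIs were taken, and by chief markers with AREG, where 60.8% were, so the 259 and 1001 compare libraries that were corrected differently.

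Taking free RNA out also turned the sign of 2 of the genes of near-empty barcodes, but Tafa2 was left at 0 without AREG in every class listed, and Cul3 at 0 with AREG in proliferating-like cells and clusters 6 and 7, so the pseudocount sets those ratios and they show no reversal. Tafa2 became 1.93 in chief-like, 2.15 in neck-like, 2.07 in parietal-like and 1.89 in pit-like cells, 1.63, 2.51 and 1.13 in clusters 3, 6 and 7, and 1.87 in pit-like cells with cluster 3. Cul3 became -0.78 in neck-like, -0.024 in parietal-like and -5.62 in proliferating-like cells, and -0.20, -5.49 and -5.49 in clusters 3, 6 and 7. The added settings were chosen after seeing the data. Low genes limit the rest, since the pseudocount and the CPM minimum decide whether they are called.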
